A study of Mus musculus with 29 samples.

Results

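The 10 genes described here were chosen by symbol because their RNA stood far lower after MycER was switched on in fibroblasts. They are Foxs1, Angptl4, Gvin1, Tmem171, Htr2a, Asb5, Ccng2, Sema7a, Stx11 and Fam214b, 10 of the 21675 genes listed in the fibroblast files. The B cell files list 21819 genes, and there Fam214b stands under its older name B230312A22Rik. Because the fibroblast RNA levels chose the genes, those levels are given as a description and carry no test, whereas the B cell comparisons were tested.

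The fibroblasts were 3T9 cells derived from mouse embryos at E13.5, of mixed strain background, with a floxed c-myc gene on both alleles (c-myc flox/flox) and infected in culture with MycER, a Myc protein fused to a hormone-binding domain. All fibroblast groups share this genotype and this introduced protein. MycER was activated with 400 nM 4-hydroxytamoxifen for 4, 8 or 16 h (OHT_4h, OHT_8h and OHT_16h, n = 4 libraries each). The only comparison group was 0 h with the ethanol vehicle (OHT_0h, n = 4), so no vehicle control of 4, 8 or 16 h was used, and time and drug cannot be told apart. A further pair of libraries, 1 at 0 h and 1 at 4 h, held RNA that had taken up 4-thiouridine (4sU, 300 µM) over 10 min, which enriches RNA made in those minutes. The second system was the Eμ-myc mouse on C57BL/6, which carries a Myc transgene driven by an immunoglobulin enhancer that works in the B cell lineage. Spleens of mice aged 6 to 8 weeks gave B220 bead-enriched B cells, wild-type (WT_spleen, n = 4) or transgenic (Tg_spleen, n = 4), and tumours were taken from lymph nodes of transgenic mice as cell suspensions with no purification (Tg_lymphnode, n = 3). Levels are FPKM as deposited, by name read counts scaled to gene length and library size. The B cell values imply fewer reads in the scaling than in the genes. The B cell and fibroblast files are on different scales and no level is compared between them.

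Myc binds DNA as a dimer with its partner Max, typically at the E-box CACGTG, and is best known as an activator of genes for growth. Repression by Myc has been linked to its binding of the activator Miz1 at promoters and to indirect routes, and known repressed genes include cell-cycle inhibitors. The 10 genes have unlike functions. Foxs1 is a forkhead transcription factor. Angptl4 is a secreted inhibitor of lipoprotein lipase and a known target of PPAR factors and hypoxia. Sema7a is a semaphorin held on the cell surface by a lipid anchor, with integrins and a plexin as receptors. Htr2a is a serotonin receptor coupled to Gq. Tmem171 encodes a transmembrane protein. Gvin1 is a very large interferon-inducible GTPase, Asb5 an ankyrin repeat and SOCS box protein of a family that recruits substrates to ubiquitin ligases, Ccng2 an unconventional cyclin linked to cell cycle arrest and a known FoxO target, and Stx11 a syntaxin needed for granule release by cytotoxic lymphocytes.

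Promoter sequences are shown for the 4 members that had a promoter sequence in RefSeq and were called in a B cell comparison, so that the start regions of genes measured in both systems can be read beside their values. Each runs 5′ to 3′ on the gene's strand from 250 bases before to 50 bases after the RefSeq start (build GRCm38.p6). Capitals mark the motifs searched on both strands: the E-box CACGTG, the forkhead site GTAAACA, the GC box GGGCGG and the TATA box TATAAA. No motif overlapped another in these windows. The windows are Fam214b at chr4:43046171-43046470 (minus strand), Ccng2 at chr5:93267323-93267622 (plus strand), Sema7a at chr9:57939862-57940161 (plus strand) and Stx11 at chr10:12964210-12964509 (minus strand).
Fam214b: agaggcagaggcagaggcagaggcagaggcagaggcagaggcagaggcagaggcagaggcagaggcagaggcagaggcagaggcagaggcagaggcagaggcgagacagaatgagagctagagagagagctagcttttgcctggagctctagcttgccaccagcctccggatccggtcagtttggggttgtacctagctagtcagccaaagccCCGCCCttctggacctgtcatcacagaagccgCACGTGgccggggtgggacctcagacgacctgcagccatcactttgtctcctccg
Ccng2: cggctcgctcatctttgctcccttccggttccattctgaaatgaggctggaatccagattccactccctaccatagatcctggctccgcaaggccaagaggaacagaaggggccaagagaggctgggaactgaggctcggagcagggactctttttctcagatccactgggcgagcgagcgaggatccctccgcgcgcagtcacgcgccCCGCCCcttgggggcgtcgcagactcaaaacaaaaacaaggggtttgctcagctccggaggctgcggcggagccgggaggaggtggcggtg
Sema7a: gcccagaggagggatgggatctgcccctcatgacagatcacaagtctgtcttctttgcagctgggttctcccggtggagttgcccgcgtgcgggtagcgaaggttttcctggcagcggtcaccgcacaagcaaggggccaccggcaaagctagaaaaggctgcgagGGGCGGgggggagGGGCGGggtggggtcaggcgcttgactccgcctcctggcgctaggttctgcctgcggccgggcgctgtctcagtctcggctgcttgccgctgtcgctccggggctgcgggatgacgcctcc
Stx11: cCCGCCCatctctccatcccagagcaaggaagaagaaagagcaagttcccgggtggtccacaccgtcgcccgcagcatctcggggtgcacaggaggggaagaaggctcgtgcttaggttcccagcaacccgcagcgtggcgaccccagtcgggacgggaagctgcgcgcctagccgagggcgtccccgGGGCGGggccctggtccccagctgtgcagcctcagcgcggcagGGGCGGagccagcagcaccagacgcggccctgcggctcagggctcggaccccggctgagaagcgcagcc
By symbol, 6 members matched 9 windows of the RefSeq table (Htr2a, Asb5, Ccng2, Sema7a, Stx11 and Fam214b), and Foxs1, Angptl4, Gvin1 and Tmem171 did not match. Of the 9 windows, 1 held the E-box: the Fam214b window shown, where the motif begins 5 bases before the start. Fam214b had another window (chr4:43040252-43040551, minus strand) with no E-box and 4 GC boxes. The window shown was picked because it held the E-box. Of 32851 promoter windows of the same length, 7.15% held CACGTG. The GC box was in 6 of the 9 windows, from 5 of the 6 members, and in 35.7% of all windows. The TATA box was in 1, upstream of Asb5, and in 13.6% of all windows, and the forkhead site was in none of the 9 and in 3.65% of all windows. The G and C content was 71% for Stx11, 67.3% for Sema7a and 62% for Ccng2, against a median of 52.7% over all windows, while the 3 Asb5 windows were at 38.7 to 41%. A match of letters is a description of these windows and shows no binding.

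Library facts bear on every fibroblast value. The summed level of 12 fibroblast markers was 530 to 657 FPKM in the 16 total RNA libraries, and that of 7 B cell markers 0.764 to 2.62 FPKM. No fibroblast gene exceeded about 201 FPKM in total RNA, whereas B cell files reached up to 986814 FPKM, and the members lay at 0.643 to 41.9 FPKM. By correlation over genes, the library numbered 4 was the least like the others of its time at 0, 4, 8 and 16 h (r = 0.383, -0.398, -0.382 and -0.0649). By the members this did not hold at 16 h, where number 4 lay at 0.463 from the others, against 0.496 and 0.514 for numbers 1 and 2. By the mean absolute log2 difference over the members, the library labelled 4 h number 4 lay nearer to the other 8 h libraries (0.222) than to the other 4 h libraries (0.945), and the library labelled 8 h number 4 nearer to 16 h (0.383) than to 8 h (0.692). Among the 16 h libraries, number 1 lay nearest to 8 h, and numbers 2 and 4 nearest to 4 h. By correlation over genes in place of the members, 4 h number 4 was closest to 0 h (r = -0.227, against -0.247 with 8 h). Its deviations from the mean of its group correlated with those of number 4 at 0, 8 and 16 h (r = 0.424, 0.411 and 0.324). The reason for these patterns was not tested. The labels were kept, and the differences of each member and the counts of each list are given with and without the treated libraries numbered 4. Myc RNA, for which the files do not say whether the introduced MycER is counted, was at 24.3 ± 3.98 FPKM at 0 h (SD, n = 4), 10.8 ± 2.84 at 4 h, 12.5 ± 2.20 at 8 h and 9.78 ± 1.41 at 16 h.

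All 10 members were lower at 4, 8 and 16 h than at 0 h, with no overlap between the 4 treated and the 4 vehicle libraries at any time. Among the 12934 genes tested, 8.18% lay lower without overlap at 4 h, 8.37% at 8 h and 11.2% at 16 h, and the choice of the members fixed their own count. The median difference over the members, on the scale of log2(FPKM + 0.5), was -1.72 at 4 h, -1.33 at 8 h and -1.93 at 16 h, against -0.04, -0.06 and -0.14 over all genes tested. Without the treated libraries numbered 4 the medians were -1.96, -1.26 and -1.81. The 3 times share the same 0 h libraries. In order from the lowest log2 difference, the members ranked from 1 to 108 of 12934 at 4 h, 3 to 72 at 8 h and 1 to 46 at 16 h. Without regard to direction, 12.5%, 13% and 13.8% of genes did not overlap. The share of genes called (adjusted p under 0.05 in limma) was 4.78% at 4 h (2.88% lower, 1.9% higher), 2.19% at 8 h (0.982% lower, 1.21% higher) and 9.51% at 16 h (7.75% lower, 1.76% higher). The counts behind these shares depend on how libraries were scaled: limma called 246 higher and 372 lower at 4 h, 156 and 127 at 8 h and 228 and 1002 at 16 h on the deposited scale, and 738 and 719, 652 and 385 and 979 and 947 under median ratio scaling, which set the median of all genes at 16 h to 0.05. The 10 members kept medians of -1.64, -1.24 and -1.77 under that scaling.

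**Figure D1:**
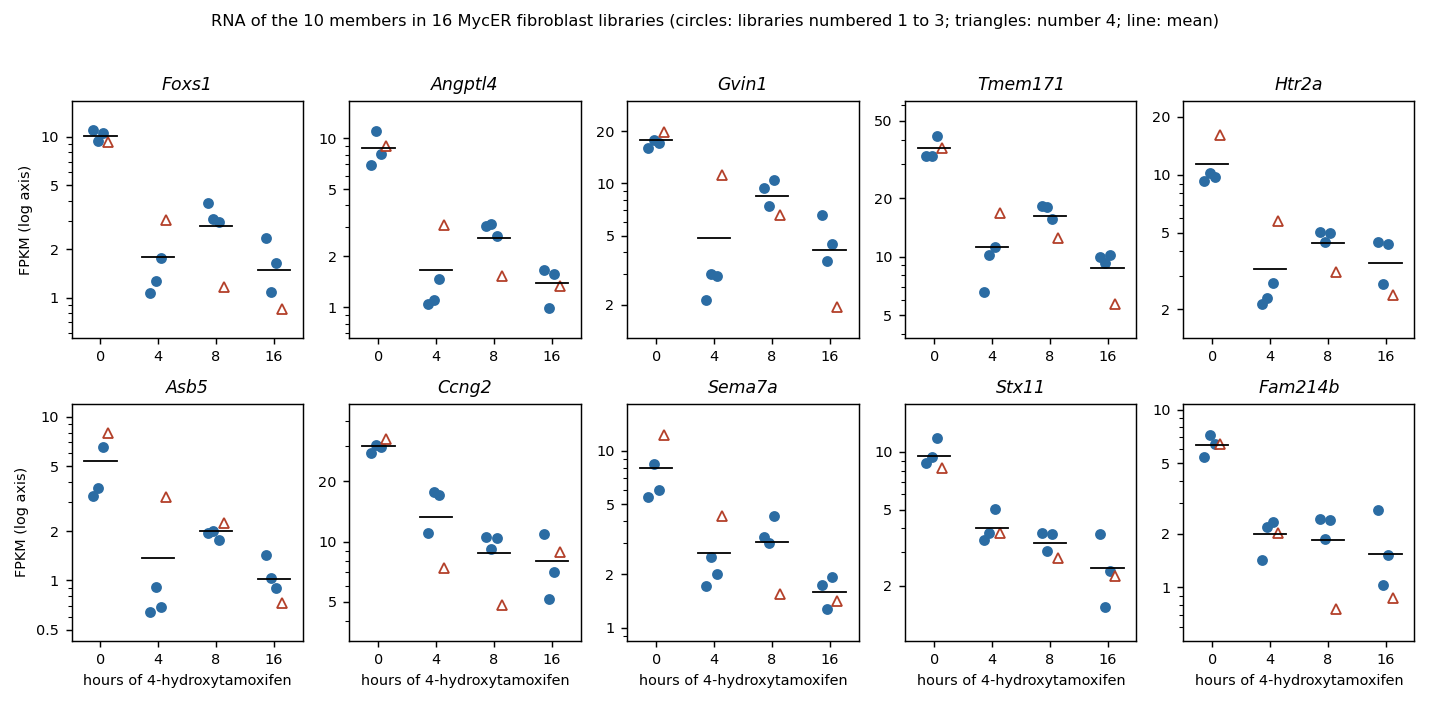
FPKM of each member in the 16 total RNA libraries (log axis) against hours of 4-hydroxytamoxifen; circles are libraries numbered 1 to 3, open triangles number 4 and lines the means of 4 libraries. In all 10 panels the 0 h libraries lie above every treated library, and at 4 h the triangle lies above the circles for Foxs1, Angptl4, Gvin1, Tmem171, Htr2a, Asb5 and Sema7a.

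The transcription factor Foxs1 had the largest difference of the members at 4 and 16 h. In libraries 1 to 4 it was at 11.1, 9.42, 10.5 and 9.26 FPKM at 0 h, 1.07, 1.27, 1.75 and 3.04 at 4 h, 3.89, 3.07, 2.97 and 1.16 at 8 h and 2.35, 1.08, 1.63 and 0.843 at 16 h. The lowest vehicle library was above 3 times the highest 4 h library. Its log2 difference from 0 h was -2.28 ± 0.29 (SE) at 4 h, -1.77 ± 0.29 at 8 h and -2.48 ± 0.29 at 16 h, and -2.52 ± 0.19, -1.48 ± 0.19 and -2.31 ± 0.19 without the treated libraries numbered 4. The mean left at 4 h was 17.7% of that at 0 h.

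The secreted lipase inhibitor Angptl4 lay at 6.91, 11.0, 8.02 and 8.97 FPKM at 0 h, 1.05, 1.1, 1.47 and 3.06 at 4 h, 3.03, 3.12, 2.65 and 1.52 at 8 h and 1.66, 0.989, 1.56 and 1.34 at 16 h. The 3 lowest 4 h libraries were those numbered 1 to 3, and the library numbered 4 was about as high as the 8 h libraries 1 to 3. Log2 differences were -2.16 ± 0.25 at 4 h, -1.60 ± 0.25 at 8 h and -2.28 ± 0.25 at 16 h, and -2.42 ± 0.19, -1.41 ± 0.19 and -2.28 ± 0.19 without the treated libraries numbered 4. Of the 0 h mean, 15.9% was left at 16 h.

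Sema7a, the surface semaphorin, was at 5.45, 8.46, 5.99 and 12.2 FPKM at 0 h, 1.72, 2.52, 2.03 and 4.25 at 4 h, 3.27, 3.03, 4.31 and 1.55 at 8 h and 1.75, 1.27, 1.94 and 1.42 at 16 h. Its vehicle libraries spread more than those of Foxs1, with number 4 the highest, and each treated library lay under the lowest of them. The differences were -1.44 ± 0.28 at 4 h, -1.27 ± 0.28 at 8 h and -1.97 ± 0.28 at 16 h, and -1.66 ± 0.21, -1.03 ± 0.21 and -1.93 ± 0.21 without the treated libraries numbered 4.

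For the receptor Htr2a, the values were 9.32, 10.2, 9.77 and 16.1 FPKM at 0 h, 2.14, 2.3, 2.74 and 5.73 at 4 h, 5.07, 4.48, 4.98 and 3.13 at 8 h and 4.5, 2.71, 4.35 and 2.37 at 16 h. The vehicle library numbered 4 and the 4 h library numbered 4 were each above the other 3 of their group. Relative to 0 h, log2(FPKM + 0.5) was -1.73 ± 0.26 at 4 h, -1.25 ± 0.26 at 8 h and -1.58 ± 0.26 at 16 h, and -2.0 ± 0.20, -1.11 ± 0.20 and -1.44 ± 0.20 without the treated libraries numbered 4. The transmembrane protein gene Tmem171 had the highest vehicle level per length of the 10: 32.7, 33.1, 41.9 and 36.2 FPKM at 0 h, 6.57, 10.2, 11.2 and 16.8 at 4 h, 18.2, 18.1, 15.6 and 12.5 at 8 h and 9.95, 9.24, 10.2 and 5.74 at 16 h. Every treated library lay below each vehicle library, and the differences were -1.71 ± 0.22, -1.15 ± 0.22 and -2.0 ± 0.22 at 4, 8 and 16 h, and -1.92 ± 0.17, -1.03 ± 0.17 and -1.82 ± 0.17 without the treated libraries numbered 4.

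Gvin1, the interferon-inducible GTPase, showed the widest gap between numbers at 4 h. It was at 16.0, 17.7, 17.2 and 19.8 FPKM at 0 h, 2.12, 2.98, 2.93 and 11.2 at 4 h, 9.43, 7.39, 10.5 and 6.58 at 8 h and 6.53, 3.57, 4.46 and 1.93 at 16 h. The 4 h library numbered 4 stood at over 3 times each of the other 3. The log2 difference at 4 h was -2.05 ± 0.37 with it and -2.52 ± 0.19 without it. At 8 and 16 h the differences were -1.04 ± 0.37 and -2.07 ± 0.37, and -0.93 ± 0.19 and -1.80 ± 0.19 without the treated libraries numbered 4. Gvin1 belongs to a family of near-identical copies, and how reads were shared among them is not given in the sources used here, so its level is uncertain.

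The ubiquitin ligase adaptor Asb5 was the lowest member at 0 h. Its values were 3.26, 3.65, 6.54 and 7.97 FPKM at 0 h, 0.643, 0.917, 0.683 and 3.23 at 4 h, 1.96, 2.01, 1.77 and 2.25 at 8 h and 1.43, 1.03, 0.892 and 0.723 at 16 h. The highest 4 h library, number 4, was just under the lowest vehicle library. Differences were -1.76 ± 0.31, -1.15 ± 0.31 and -1.88 ± 0.31 at the 3 times, and -2.15 ± 0.22, -1.20 ± 0.22 and -1.79 ± 0.22 without the treated libraries numbered 4.

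Ccng2, the cyclin linked to arrest, took another course. It lay at 27.7, 30.3, 29.6 and 32.5 FPKM at 0 h, 11.1, 17.7, 17.2 and 7.36 at 4 h, 10.5, 9.22, 10.4 and 4.79 at 8 h and 10.9, 5.16, 7.01 and 8.89 at 16 h. Here the 4 h library numbered 4 was the lowest of its group instead of the highest. The differences were -1.22 ± 0.27 at 4 h, -1.78 ± 0.27 at 8 h and -1.89 ± 0.27 at 16 h, and -0.98 ± 0.19, -1.54 ± 0.19 and -1.96 ± 0.19 without the treated libraries numbered 4.

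The syntaxin Stx11 was at 8.75, 9.39, 11.9 and 8.3 FPKM at 0 h, 3.49, 3.8, 5.04 and 3.79 at 4 h, 3.8, 3.03, 3.73 and 2.79 at 8 h and 3.75, 1.56, 2.4 and 2.26 at 16 h. Its 4 h libraries lay within a narrow range and number 4 fell inside it. The differences were -1.15 ± 0.20, -1.39 ± 0.20 and -1.79 ± 0.20, and -1.13 ± 0.21, -1.32 ± 0.21 and -1.77 ± 0.21 without the treated libraries numbered 4. For Fam214b the values were 5.4, 7.19, 6.41 and 6.44 FPKM at 0 h, 1.43, 2.18, 2.33 and 2.02 at 4 h, 2.42, 1.88, 2.39 and 0.753 at 8 h and 2.74, 1.03, 1.53 and 0.876 at 16 h. The 8 h library numbered 4 was the lowest of all 16. Log2 differences were -1.47 ± 0.27, -1.61 ± 0.27 and -1.82 ± 0.27 at 4, 8 and 16 h, and -1.48 ± 0.21, -1.33 ± 0.21 and -1.66 ± 0.21 without the treated libraries numbered 4.

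The course between 4 and 16 h depended on the libraries numbered 4. Over all libraries, 7 of 10 members had a higher mean at 8 h than at 4 h, with overlap of the groups in each, and all 10 had a lower mean at 16 h than at 8 h, 3 without overlap. The lowest mean was at 16 h for 9 members and at 4 h for Htr2a. In libraries 1 to 3 alone, 7 members (Foxs1, Angptl4, Gvin1, Tmem171, Htr2a, Asb5 and Sema7a) were higher at 8 h than at 4 h without overlap, against 8.84% of all genes. Of the members, 6 were lower at 16 h than at 8 h without overlap, against 7.6% of genes. Ccng2 was lower at 8 h than at 4 h in all of these libraries, a pattern of 4.74% of genes, and Stx11 and Fam214b overlapped between 4 and 8 h. In libraries 1 to 3, the lowest mean was at 4 h for 6 members and at 16 h for 4. Between 4 and 8 h in libraries 1 to 3, Gvin1 had the largest difference upward, 1.59 in log2(FPKM + 0.5), and Ccng2 differed by -0.56. The members were chosen for their difference from 0 h, and differences between 4, 8 and 16 h share libraries with that choice, so no test is given.

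**Figure D2:**
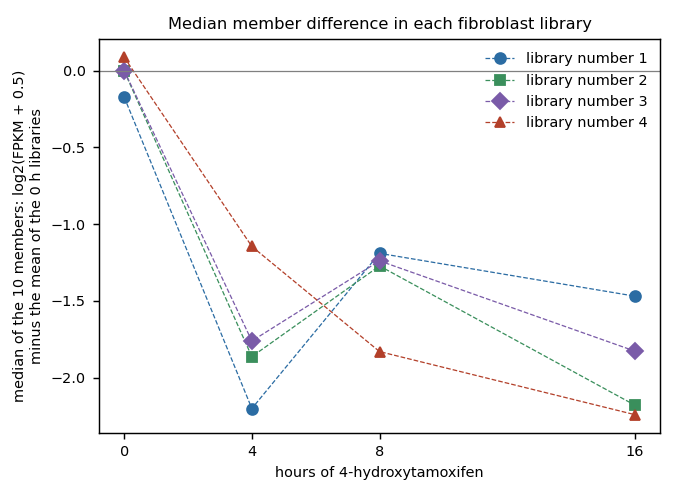
Median over the 10 members of log2(FPKM + 0.5) minus the mean of the 0 h libraries, for each of 16 libraries, against hours of 4-hydroxytamoxifen; dashed lines join equal library numbers and do not mean one culture. Numbers 1 to 3 lie at -2.2 to -1.76 at 4 h and -1.27 to -1.19 at 8 h, and number 4 at -1.15 and -1.83.

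Over the 16 libraries, the correlation between 2 members (Pearson's r of log2 values, 45 pairs) had a median of 0.893 and ran from 0.534 to 0.97. Over the 12 treated libraries it ran from -0.398 to 0.923 with a median of 0.688. These libraries share the contrast with 0 h that chose the members, and the values are descriptions. The genes whose log2 profile over the 16 libraries was most like the mean profile of the members, among 11280 candidates, were Arhgef3 (r = 0.981), Sgms2 (0.974), a sphingomyelin synthase, Ikzf2 (0.972), a zinc finger transcription factor, the kinase gene Lrrk2 (0.972) and Evi2a (0.972). Ikzf2 was at 11.8 ± 2.33 FPKM at 0 h (SD, n = 4) and 4.09 ± 1.81 at 4 h, and Evi2a at 14.3 ± 1.32 and 4.61 ± 1.91. The others stood less far apart for their level: Arhgef3 at 2.90 ± 0.11 and 1.72 ± 0.38, Sgms2 at 21.4 ± 3.46 and 10.2 ± 2.85 and Lrrk2 at 16.1 ± 2.43 and 8.53 ± 1.38.

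Newly made RNA of all 10 members was lower at 4 h than at 0 h in the 4sU libraries. With 1 library per time there is no replicate check and no test, and the intervals given cover counting error only, from read numbers estimated from the spacing of the FPKM values (exact binomial). The cyclin gene Ccng2 was at 6.65 FPKM at 0 h and 1.7 at 4 h, leaving 25.5% (95% interval 20.8 to 30.8%). Fam214b lay at 3.64 FPKM at 0 h and 0.969 at 4 h, or 26.6% (95% interval 20.9 to 33.4%). Their log2 ratios were -1.70 and -1.50 on FPKM + 0.5.

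The syntaxin Stx11 was at 1.71 FPKM at 0 h and 0.434 at 4 h (25.5%), and Sema7a at 4.61 FPKM at 0 h and 1.74 at 4 h (37.7%). Htr2a was at 4.4 FPKM at 0 h and 1.79 at 4 h (40.8%). Angptl4 was at 1.98 FPKM at 0 h and 0.690 at 4 h (34.8%). The counting interval of each of these 4 lay below 50% of the 0 h level. Gvin1 went from 7.88 to 3.82 FPKM and Tmem171 from 9.45 to 4.90. Foxs1 was at 1.42 FPKM at 0 h and 0.750 at 4 h, and its interval of 31.2 to 87.4% of the 0 h level was wide, with about 52 and 24 reads. Asb5, at 0.659 and 0.104 FPKM, left 15.8% (95% interval 4.04 to 45%), rested on about 29 and 4 reads and was under the filter of 1 FPKM.

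The median log2 ratio of the members on FPKM + 0.5 was -1.08, against 0.02 over 12375 genes. With pseudocounts of 0.1 and 1 the median of the members was -1.38 and -0.899. On FPKM + 0.5, 6 of 10 members were at -1 or less, against 0.703% of genes. The 4 h total RNA chose the members and was taken from cells under the same treatment, so these shares describe the members and support nothing further. The order of the members differed between the readouts. On the scale of log2(FPKM + 0.5), the difference was larger in total than in labelled RNA for 7 members, most for Foxs1 (log2 difference -2.28 in total and -0.62 in labelled RNA), and smaller for Ccng2 (-1.22 and -1.70), Stx11 (-1.15 and -1.24) and Fam214b (-1.47 and -1.50), the last 2 within the SE of the total RNA value. The same 7 members stood on that side without the 4 h library numbered 4. One of the 7, Sema7a, was also within the SE (-1.44 ± 0.28 in total and -1.19 in labelled RNA). Without the treated libraries numbered 4 its total RNA value was -1.66 ± 0.21, outside it. On FPKM the total RNA of Sema7a was at 32.8% of 0 h, inside the counting interval of its labelled RNA (30.8 to 45.8%). For Asb5 the side depends on the pseudocount, since its labelled RNA was at 15.8% of 0 h and its total RNA at 25.5% on FPKM. For Stx11 the size of the gap depends on the pseudocount. On FPKM its labelled RNA was at 25.5% of 0 h (counting interval 18.0 to 35.7%) and its total RNA at 42.1%, outside that interval. Fam214b was at 26.6% in labelled RNA (counting interval 20.9 to 33.4%) and 31.3% in total RNA, inside it.

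**Figure D3:**
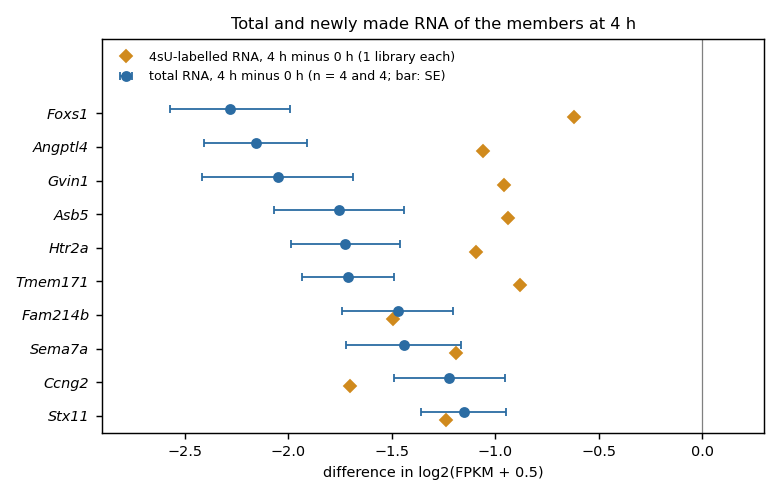
Difference in log2(FPKM + 0.5) between 4 and 0 h for each member, in total RNA (circles, bars are SE, n = 4 and 4) and in 4sU-labelled RNA (diamonds, 1 library per time). All symbols lie below 0; the diamond is nearer 0 than the circle for 7 members and further for Ccng2, Stx11 and Fam214b.

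In B cells the members separated into 6 that were expressed and 4 that were near the detection limit. Foxs1, Tmem171, Htr2a and Asb5 were at 0 to 6.3 FPKM in all 11 libraries, or about 0 to 7 reads. Foxs1 was at 0 in 7 of the 8 spleen libraries and in 1 lymph node library, and at 2.8 and 6.3 FPKM in lymph node replicates 1 and 3. No fold is given for these 4. The labels do not say that libraries of a group came from separate mice, so p-values measure the spread between these libraries. B cell markers (7 genes) summed to 37287 to 41693 FPKM in WT_spleen, 23238 to 36211 in Tg_spleen and 17254, 19169 and 1354 in lymph node replicates 1 to 3, and replicate 3 had the highest T cell sum (9914 FPKM). In bulk RNA, fewer cells of a type and less RNA per cell cannot be told apart.

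In Tg_spleen against WT_spleen, 6 members were tested and 4 were called at an adjusted p under 0.05 (limma, Benjamini-Hochberg over all genes), 3 lower and 1 higher. Of all 14021 genes tested, 27.9% were called, 12.2% lower and 15.7% higher. In Tg_lymphnode against WT_spleen, 8 were tested and 4 called, again 3 lower and 1 higher, where 38.1% of genes were called, 17.7% lower and 20.3% higher. Both comparisons share the WT_spleen libraries. Between Tg_lymphnode and Tg_spleen, none of 7 members tested was called by limma, where 5.95% of genes were, and 2 of the 7 had an unadjusted p under 0.05. Of all genes there, 2.39% were called lower and 3.56% higher. Counted by libraries alone, the groups of 4 of the 6 members did not overlap in Tg_spleen against WT_spleen, 3 of them lower (31.6% of genes, 14.7% lower), 4 of the 8 in Tg_lymphnode against WT_spleen, 3 lower (45.4%, 21.4% lower), and 2 of the 7 between the transgenic groups, both lower (22.4%, 10.6% lower). The median log2 difference of the members tested was -0.92, -0.79 and 0.03 in the 3 comparisons, against -0.05, 0.05 and 0.02 over all genes. The second median includes Tmem171 and Asb5 and the third Tmem171, which were near the detection limit. Without them the second would lie between Stx11 (-1.17) and Ccng2 (-0.80). The third would lie between Stx11 (-0.26) and Sema7a (0.03), so its sign is not settled.

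**Figure D4:**
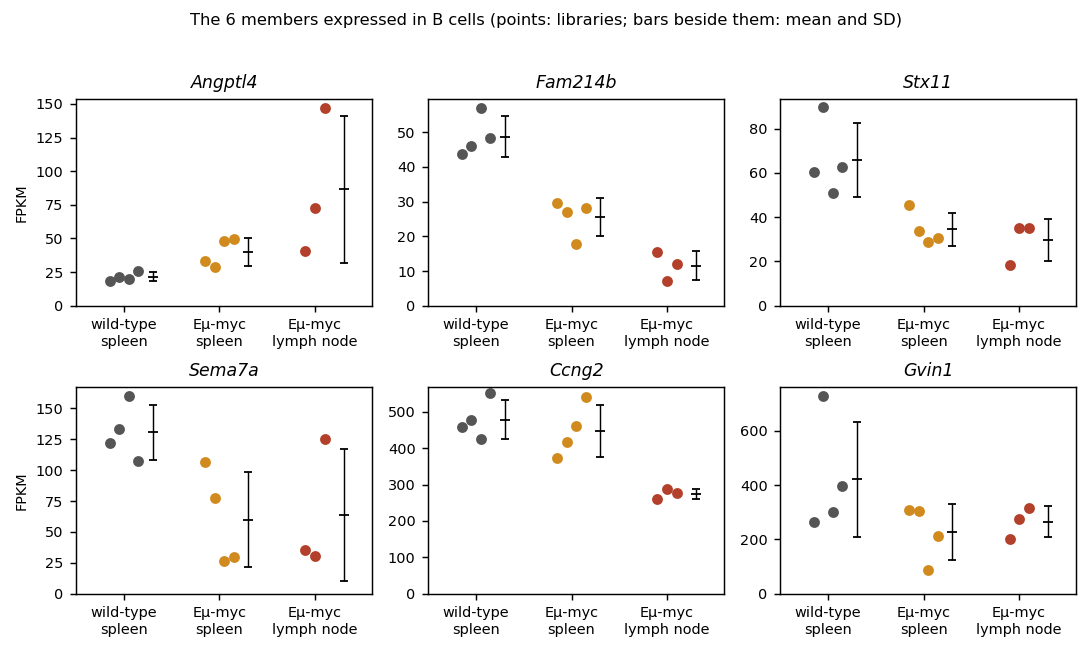
FPKM of the 6 members expressed in B cells (linear axis from 0), by group; points are libraries and the bars beside them the mean and SD (n = 4, 4 and 3). Fam214b steps down over the groups without overlap, Angptl4 lies above wild-type in all 7 transgenic libraries, and the third lymph node library is the highest for Angptl4 and Sema7a.

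Fam214b fell in both transgenic groups. It was at 43.7, 46.0, 57.0 and 48.2 FPKM in WT_spleen, 29.6, 27.0, 17.7 and 28.1 in Tg_spleen and 15.5, 7.1 and 11.9 in Tg_lymphnode. The 3 groups did not overlap. Against WT_spleen the log2 difference was -0.93 ± 0.21 (SE, limma adjusted p = 0.0111) in Tg_spleen and -2.09 ± 0.31 (limma adjusted p = 0.0016) in Tg_lymphnode. Between the transgenic groups it was -1.16 ± 0.38 (limma adjusted p = 0.113), which did not pass. The calls against WT_spleen held when any 1 library was left out, at limma adjusted p-values of 0.00717 to 0.04 and 0.00118 to 0.00795. B cell markers also summed lower in both transgenic groups than in WT_spleen. The part of the cell mix in the Fam214b level was not tested.

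Stx11 fell as well. Its values were 60.5, 89.7, 51.0 and 62.5 FPKM in WT_spleen, 45.4, 33.8, 28.9 and 30.5 in Tg_spleen and 18.6, 35.2 and 35.2 in Tg_lymphnode. Every transgenic library lay under the lowest wild-type library. The log2 difference was -0.91 ± 0.22 (limma adjusted p = 0.0153) in Tg_spleen and -1.17 ± 0.31 (limma adjusted p = 0.019) in Tg_lymphnode, the latter lost without WT_spleen replicate 3 (limma adjusted p = 0.0533). Markers of NK cells, which also use Stx11, moved with it: 6 genes summed to 422 to 760 FPKM in WT_spleen, 51 to 381 in Tg_spleen and 127 to 212 in Tg_lymphnode, and 4 and 5 of the 6 were called lower. Other marker lists did not all move the same way. In Tg_lymphnode, limma called 6 of 8 macrophage and monocyte genes lower and 1 higher, and 2 of 5 T cell genes higher and 0 lower. In Tg_spleen it called none of either list, and 1 and 4 genes were lower at an unadjusted p under 0.05. The part of these cell types in the fall of Stx11 was not tested.

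Sema7a fell in Tg_spleen and was not called in Tg_lymphnode. It was at 122, 133, 159.7 and 108 FPKM in WT_spleen, 106, 77.6, 26.2 and 29.8 in Tg_spleen and 35.7, 30.2 and 125 in Tg_lymphnode. Tg_spleen replicates 4 and 5 and lymph node replicates 1 and 2 were low, and lymph node replicate 3 was within the wild-type range. The log2 difference was -1.35 ± 0.41 (limma adjusted p = 0.0359) and -1.32 ± 0.46 (limma adjusted p = 0.054). The first call was lost without any one of the 4 WT_spleen libraries or Tg_spleen replicate 4 or 5 (limma adjusted p 0.0583 to 0.0982). Without lymph node replicate 3, the library low in B cell markers, the second was -1.96 (limma adjusted p = 0.000179) and so called. Markers of other cells moved with Sema7a in Tg_spleen replicates 2 to 5: 5 T cell genes summed to 129.8, 108.6, 24.1 and 66.6 FPKM (129 to 259.7 in WT_spleen; none called by limma, 4 at an unadjusted p under 0.05), and 6 NK cell genes to 381, 232, 51 and 159.7 (4 called lower). All 3 plasmacytoid dendritic cell genes were called lower in Tg_spleen, and in lymph node replicate 3 they summed to 3684 FPKM and the T cell genes to 9914. Their part in the Sema7a level was not tested.

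Angptl4 rose in both groups, opposite to its course in fibroblasts. It stood at 18.4, 21.3, 19.7 and 26.1 FPKM in WT_spleen, 33.1, 28.9, 48.3 and 49.5 in Tg_spleen and 40.6, 72.4 and 147 in Tg_lymphnode. No transgenic library overlapped the wild-type ones, and the lymph node libraries spread widely, with replicate 3 the highest. Log2 differences were 0.86 ± 0.23 (limma adjusted p = 0.0228) and 1.81 ± 0.41 (limma adjusted p = 0.0103), and 1.33 (limma adjusted p = 0.0078) in Tg_lymphnode without replicate 3. The Tg_spleen call was lost without WT_spleen replicate 1, 3 or 4 or Tg_spleen replicate 4 or 5 (limma adjusted p 0.0513 to 0.0648). Markers of other cells were high in the lymph nodes, where Angptl4 was highest: 8 stroma genes summed to 426 to 623 FPKM (5.4 to 7.8 in WT_spleen, 5.5 to 23.7 in Tg_spleen), with all 8 called higher, and 5 adipocyte genes to 54.6 to 502 (7.3 to 32.2 and 11.5 to 31), with 3 of 3 tested called higher. Salivary gland and pancreas genes summed to 2261 to 10377 FPKM there and to 44 at most in spleen. Their part in the Angptl4 level was not tested. In Tg_spleen, limma called none of the 3 stroma and 2 adipocyte genes tested, and none had an unadjusted p under 0.05. The sum of 12 fibroblast marker genes did move with Angptl4 there, at 1314 to 1979.9 FPKM in WT_spleen and 2319.8, 2742, 5291 and 5443 in Tg_spleen replicates 2 to 5. Most of it was Vim, a filament gene that blood cells also express and the 1 of 9 tested that was called (higher, limma adjusted p = 0.0143), and the other 11 genes summed to 110.4 to 219 and 123 to 183 FPKM. The part of these markers in the Angptl4 level was not tested.

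Ccng2 was high in every B cell library and fell in Tg_lymphnode. It was at 459, 478, 425 and 553 FPKM in WT_spleen, 374, 417, 461 and 540.2 in Tg_spleen and 261, 287 and 275 in Tg_lymphnode. The spleen groups overlapped, and the 3 lymph node libraries lay below all 8 spleen libraries. The log2 difference was -0.10 ± 0.15 (limma adjusted p = 0.628) in Tg_spleen and -0.80 ± 0.14 (limma adjusted p = 0.00315) in Tg_lymphnode against WT_spleen, and the latter held with any 1 library left out. The difference between the transgenic groups, -0.69 ± 0.18, did not pass (limma adjusted p = 0.063). B cell markers summed lower in both transgenic groups than in WT_spleen, and the part of the cell mix in the Ccng2 level was not tested.

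Gvin1 was not called in any B cell comparison. It lay at 264, 728, 300.2 and 395 FPKM in WT_spleen, 308, 303, 87.3 and 214 in Tg_spleen and 203, 276 and 317 in Tg_lymphnode. WT_spleen replicate 3 and Tg_spleen replicate 4 were the extremes and the groups overlapped. Log2 differences against WT_spleen were -0.92 ± 0.43 (limma adjusted p = 0.135) and -0.57 ± 0.35 (limma adjusted p = 0.226). Tmem171 and Asb5 passed the filter in the lymph node comparison on about 0 to 3 reads a library and were not called (limma adjusted p = 0.0985 and 0.297).

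The spleen libraries fall into a set with over 400000 FPKM of Rpph1, a small structural RNA (WT_spleen replicates 1 and 3 and Tg_spleen replicates 2 and 3), and a set below it. Each Tg_lymphnode library was above that level too (lowest 442640 FPKM), so the comparisons of Tg_lymphnode with spleen are not balanced for it. Within the high set (2 against 2), limma called no member and 4 of 7 had an unadjusted p under 0.05. Of all 14202 genes there, it called 908 higher and 518 lower, and 4048 had an unadjusted p under 0.05. Within the low set limma called 4 members, and of all 14263 genes it called 1960 higher and 1374 lower. Sema7a differed by -0.49 in the high set and -2.21 in the low set, and Gvin1 by -0.52 and -1.33. Stx11 was similar in both (-0.90 and -0.92), as were the directions of Angptl4 (0.63 and 1.09) and Fam214b (-0.66 and -1.21).

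The relatives and pathways of the members were taken from lists that leave the members out. These lists were chosen with earlier results of these data known, so their calls are not independent of the data. Of 15 FoxO target genes tested, the group of Ccng2, limma called none at 4 or 8 h (6 and 4 at an unadjusted p under 0.05) and 5 lower at 16 h, where 7.75% of all genes were lower. Gadd45a, a stress-induced growth inhibitor, was at 13.2 ± 2.81 FPKM against 25.5 ± 3.21, a log2 difference of -0.94 ± 0.20 (SE, adjusted p = 0.00397) by limma. Bnip3, a mitophagy receptor that is also on the hypoxia list, was at 37.8 ± 6.38 FPKM against 61.7 ± 3.29, a log2 difference of -0.71 ± 0.15 (SE, adjusted p = 0.00509) by limma. Without the treated libraries numbered 4, 5 FoxO targets were lower at 4 h, 1 at 8 h and 5 at 16 h.

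Of 14 hypoxia target genes, limma called none at 4 or 8 h (5 and 4 at an unadjusted p under 0.05) and 4 lower at 16 h, and without the treated libraries numbered 4 it called 2 lower at 4 h, 1 higher at 8 h and 1 higher and 3 lower at 16 h. Among 11 PPAR target genes, the group of Angptl4, Plin2, a lipid droplet coat protein, was lower at 4 h (48.6 ± 7.93 FPKM against 68.4 ± 4.96, a log2 difference of -0.50 ± 0.14 (SE, adjusted p = 0.044) by limma) and 16 h, and no other was called. At 8 h limma called none of them, with 1 at an unadjusted p under 0.05, and without the treated libraries numbered 4 it called 1, 0 and 2 lower at the 3 times. Of 13 genes known from other studies as repressed by Myc, limma called 1 lower at 4 h, none at 8 h (4 at an unadjusted p under 0.05) and 4 lower at 16 h, against 2 lower at each time without the treated libraries numbered 4. The one at 4 h was the integrin gene Itga6, at 6.00 ± 3.28 FPKM against 10.9 ± 2.37, a log2 difference of -0.90 ± 0.24 (SE, adjusted p = 0.0361) by limma, which quantile normalization lost (limma adjusted p = 0.0545). The median of this list was -0.26, -0.12 and -0.29 at the 3 times.

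Of the close relatives of the members, some passed. Of 18 forkhead genes, limma called none at 4 or 8 h (3 and 1 at an unadjusted p under 0.05), and 2 (Foxc2 and Foxl1) were lower at 16 h, neither of which was called without the treated libraries numbered 4 (limma adjusted p = 0.0725 and 0.0502), where 1 forkhead gene was lower at 4 h. Of 4 interferon-inducible GTPases, 2 were lower at 16 h, among them Irgm1 at 19.6 ± 7.23 FPKM against 43.7 ± 2.38, a log2 difference of -1.21 ± 0.30 (SE, adjusted p = 0.0154) by limma, and without the treated libraries numbered 4, 1 was lower at 4 h, none at 8 h and 1 at 16 h. Of 17 syntaxins and Munc18 partners, 2 were lower at 16 h (Stxbp3a and Stx7), and without those libraries 2 at 4 h, none at 8 h and 2 at 16 h. For the 2 serotonin receptors, the cyclins Ccng1 and Ccni and the single Fam214 relative, limma made no call at any time, and of these 5 genes none at 4 or 8 h and 1 at 16 h had an unadjusted p under 0.05. Of 11 semaphorins and Sema7a receptors, 1 was higher and 1 lower at 4 h, 1 lower at 8 h, and 1 higher and 3 lower at 16 h, and without the treated libraries numbered 4 the 4 h count was 1 higher and 3 lower and the others were equal. Sema4c, a semaphorin of another class, was lower at all 3 times, at 4 h at 4.38 ± 0.802 FPKM against 8.8 ± 0.5, a log2 difference of -0.94 ± 0.20 (SE, adjusted p = 0.00751) by limma. Sema6b was higher at 4 and 16 h, and Sema3a and Sema5a were lower at 16 h, calls that quantile normalization lost (limma adjusted p = 0.0855 and 0.0531). Asb13 was higher at all 3 times (at 4 h 34.6 ± 6.28 FPKM against 20.3 ± 3.42, a log2 difference of 0.75 ± 0.15 (SE, adjusted p = 0.00594) by limma), and among lipases the endothelial lipase gene Lipg was higher at 8 and 16 h. Without the treated libraries numbered 4, the lipase list had 1 higher at each time, as had the list of Asb13, and the serotonin receptor, cyclin and Fam214 lists had no call by limma. Each gene called in these lists kept its direction under median ratio scaling and quantile normalization.

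In B cells, 6 of 15 FoxO targets were lower and 1 higher in Tg_spleen (12.2% of all genes lower), and 10 lower and 1 higher in Tg_lymphnode against WT_spleen (17.7% lower). Bcl6, a transcriptional repressor of germinal centre B cells, was at 44.9 ± 14.7 FPKM against 188 ± 27.9, a log2 difference of -2.10 ± 0.24 (SE, adjusted p = 0.00157) by limma in Tg_spleen. The cell-cycle inhibitor Cdkn1b was at 226 ± 30.8 FPKM against 624 ± 71.9, a log2 difference of -1.46 ± 0.16 (SE, adjusted p = 0.000426) by limma in Tg_lymphnode. Without lymph node replicate 3, 10 were lower and 1 higher.

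Hypoxia targets were called in both directions, 4 higher and 3 lower of 14 in each comparison with WT_spleen. Ldha, lactate dehydrogenase, was at 2051 ± 892 FPKM against 619 ± 60.2, a log2 difference of 1.62 ± 0.29 (SE, adjusted p = 0.005) by limma in Tg_spleen. Of PPAR targets, limma called none of 12 in Tg_spleen (2 at an unadjusted p under 0.05), and 2 were higher and 1 lower of 14 in Tg_lymphnode. Of genes known as repressed by Myc, 2 of 12 were higher and 1 lower in Tg_spleen and 7 of 13 higher and 3 lower in Tg_lymphnode. The higher ones there included the collagens Col1a2 and Col3a1, which stromal cells also express, and stroma markers were high there.

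Of the relatives, 4 of 12 interferon-inducible GTPases were lower in Tg_spleen and 5 in Tg_lymphnode, none higher in either. Gbp5 was at 57.8 ± 8.99 FPKM against 256 ± 53.1, a log2 difference of -2.13 ± 0.20 (SE, adjusted p = 0.000269) by limma in Tg_lymphnode. Syntaxins and their partners were called lower for 1 and 5 of 16 and higher for 1 each, and Stxbp3a was lower in both. Semaphorins and Sema7a receptors were called in both directions (1 higher and 4 lower of 16, then 4 and 4 of 18), as were forkhead genes (3 higher and 5 lower of 12, then 4 and 6 of 14). Asb13, higher in the treated fibroblasts, was lower in both transgenic groups, at 56.6 ± 3.27 FPKM against 135 ± 4.39, a log2 difference of -1.25 ± 0.14 (SE, adjusted p = 0.000481) by limma in Tg_lymphnode, and its Tg_spleen call was lost under median ratio scaling (limma adjusted p = 0.0502). Of 7 angiopoietin-like genes and lipases, limma called none in Tg_spleen (2 at an unadjusted p under 0.05), and 2 were higher and 1 lower in Tg_lymphnode. Ccng1 was higher in Tg_spleen (630.2 ± 95.3 FPKM against 451 ± 64.1, a log2 difference of 0.48 ± 0.15 (SE, adjusted p = 0.0414) by limma), a call lost under quantile normalization (limma adjusted p = 0.102), and Ccni lower in Tg_lymphnode.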

How the data were processed

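Total RNA was sequenced from 16 libraries of mouse fibroblasts and 11 of B cells or lymph node tumours, with 2 further libraries of 4sU-labelled fibroblast RNA. The deposited values are FPKM per gene in 1 column per library, per the file headers. The submitters' processing notes name TopHat2 2.0.8, TopHat, SAMtools, HTSeq 0.5.3p9 and the build mm9, with no order. How FPKM was computed from reads, and whether reads shared by several genes were counted, is not given in the sources used here. The spacing of low FPKM values put the denominators at about 16670000 to 17330000 reads for total fibroblast RNA, 27620000 (0 h) and 24080000 (4 h) for 4sU and 810000 to 1470000 for B cells. No file holds counts, so limma 3.58.1 (R 4.3.3) was fitted to log2(FPKM + 0.5), with eBayes trend and robust options and Benjamini-Hochberg adjustment over all genes. A gene was tested if the number of libraries at or above 1 FPKM reached the size of the smaller group. The 16 fibroblast libraries shared 1 fit and each pair of B cell groups had its own. Fibroblast fits of the members are printed as differences with SE and no p. Tables, promoter searches and figures used Python 3.11.15 with pandas 2.3.3, NumPy 2.4.6, SciPy 1.17.1 and Matplotlib 3.10.9.

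The members, and the lists of pathway genes, relatives and cell markers, were chosen with earlier results of these data known. Genes named beside the members are Myc, per list up to 2 called genes of lowest adjusted p (without any call, the gene of highest level), markers that moved with a member, and the 5 genes most like the members by correlation, leaving out predicted genes and small RNAs; other list genes named are those called in counts of 5 or fewer and were chosen after their values were seen. No 2 libraries held identical values. Whether equal replicate numbers mark a pair is not in the labels, so the main fits used no pairing. Deviations from the group means correlated above 0.1 in 19 of 24 equal-numbered fibroblast pairs (0.0193 to 0.643) and 1 of 6 B cell pairs (-0.0232 to 0.121). The 72 other fibroblast pairs ran from -0.526 to 0.414 and the 34 other B cell pairs from -0.182 to 0.215. Equal-numbered fibroblast libraries thus shared some deviation, which the main fits leave in the spread. The fits were tested on simulated data. Alternatives were pseudocounts of 0.1 and 1, no filter or 5 FPKM, median ratio scaling, quantile normalization, limma without trend and robust, all B cell groups in 1 fit, a replicate block, sets split by Rpph1, and each library left out. Chosen after the data were seen were fits without the libraries numbered 4, a transform for a ceiling of 2 reads per base, and the pseudocounts for 4sU.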

Additional observations from a re-analysis of the deposited data

Results flagged for a closer look

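In 59 sets of 4 libraries (1 member in 1 group), 5 had a highest library whose gap to the next exceeded Dixon's 95% critical share of the range, and chance flags about 1 in 20 such sets. Of these, 3 were the 4 h library numbered 4. Gvin1, the interferon-inducible GTPase, stood there at 11.196 FPKM against 2.985 in the next library. Htr2a, the serotonin receptor, was at 5.731 FPKM against 2.74, and Asb5 at 3.231 FPKM against 0.917. Htr2a also stood apart in the 0 h library numbered 4, at 16.055 FPKM against 10.178. In B cells, Foxs1 was at 0.5 FPKM in Tg_spleen replicate 5 and at 0 in the other 3 Tg_spleen libraries, which is about 1 read.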

How the results depend on the processing

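The median differences of the members at 4, 8 and 16 h moved by less than the spread between libraries under every alternative run. They lay between -1.962 and -1.538 at 4 h, -1.438 and -1.258 at 8 h and -2.059 and -1.809 at 16 h when any 1 library was left out. The counts of genes called by limma did move. At 4 h, 618 genes became 1457 under median ratio scaling, 1780 (888 higher, 892 lower) under quantile normalization, 1276 without the 4 libraries numbered 4 and 1374 without the treated ones, and 265 to 792 without 1 library. At 8 h, 283 became 1037, 1157 (681 higher, 476 lower), 433, 511 and 147 to 395 in the same order. At 16 h, 1230 became 1926 and 2054 (1022 higher, 1032 lower) under the scalings and 674 to 2065 without 1 library. The counts moved by over 1.5 times without any one 0 h library or 4 h replicate 1 or 2 (4 h), any one 0 h library or 8 h replicate 2 or 3 (8 h), and 0 h replicate 2 or 16 h replicate 1, 2 or 4 (16 h). With the replicate block, which takes up the deviation that equal-numbered fibroblast libraries shared, the counts were 1105, 729 and 2071.

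Among B cells, the 4 members called in Tg_spleen became 1 with the replicate block, 2 in the fit of all 3 groups, 0 in the high Rpph1 set (4 of 7 at an unadjusted p under 0.05 by limma) and 2 to 5 without 1 library (2 without WT_spleen replicate 1, 3 or 4 or Tg_spleen replicate 4 or 5). Over all genes, 2206 higher and 1712 lower of 14021 became 575 and 265 with that block. In the fit of all 3 groups they became 1555 and 769 of 14627. The 4 called in Tg_lymphnode against WT_spleen became 0 with the block, which keeps only libraries of shared numbers, and 3 to 5 without 1 library. With the block limma called 0 of all 14758 genes there, so that loss was not particular to the members. At an unadjusted p under 0.05 by limma were 4 of the 8 members and 3784 of all genes. Between the transgenic groups, 0 became 2 in the fit of all 3 groups (Fam214b and Ccng2, both lower) and 0 to 1 without 1 library (1 without lymph node replicate 2). Over all genes there, 523 higher and 351 lower of 14692 became 1056 and 1071 of 15133 in the fit of all 3 groups. The differences that changed sign belonged to results that were not called: Ccng2 in Tg_spleen was 0.0416 in the low Rpph1 set, and Asb5 in Tg_lymphnode was 0 with the block. Between the transgenic groups, Sema7a was -0.084 under quantile normalization, -0.557 with the block and -0.6125 to 0.4038 without 1 library, below 0 without Tg_spleen replicate 4 or 5 or lymph node replicate 3. Gvin1 there was -0.047 with the block and -0.05665 to 0.5475 without 1 library (below 0 without Tg_spleen replicate 4), and Stx11 was -0.4064 to 0.04473 (above 0 without lymph node replicate 1). The causes were not tested. With 3 or 4 libraries per group and 1 per 4sU time, and about 0 to 7 reads for 4 members in B cells, small differences are not detectable.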
